A study of Mus musculus with 4 samples.

Results

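The genes described here form the Wnt receptor complex that surrounds Lgr5 and its feedback loop. They were chosen by name, as gene probes whose annotated gene was Lgr5, Lgr4, Rnf43, Znrf3, Fzd5, Fzd7, Lrp5, Lrp6, Axin2 or Nkd1. All 10 genes were on the array, with 18 of its 41174 gene probes, which stood for 28307 genes. The data were 4 arrays of 2 colours, each comparing RNA labelled Lgr5-GFP with RNA labelled CD24hi, both from sorted crypt cells of normal adult mouse colon. The mice carried the Lgr5_EGFP-ires-CreERT2 knock-in, in which the Lgr5 promoter drives GFP and which is known to be expressed in a patchy way between crypts. Lgr5-GFP cells were sorted by GFP, and CD24hi cells with a PE-conjugated antibody to CD24, which the design text links to a subset of goblet cells. There were 2 replicates of 2 arrays. Arrays 1A and 2A had the RNA labelled Lgr5-GFP in Cy3, and their dye swaps 1B and 2B had it in Cy5. The sources used here do not give the sex of the mice, their number, any pooling, or whether the replicates came from separate animals. The p-values below therefore cover no more than the spread of these samples, and that may be technical. Slide and replicate cannot be told apart.

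Wnt proteins bind a Frizzled receptor together with LRP5 or LRP6, which stops the breakdown of beta-catenin and lets it act with TCF factors on target genes. The membrane ubiquitin ligases RNF43 and ZNRF3 remove Frizzled from the cell surface. R-spondins, held by LGR4, LGR5 or LGR6, take these ligases away and so raise the response to Wnt. In the colon this pathway maintains the crypt base stem cells, of which Lgr5 is a marker, and Axin2 and Nkd1 are feedback inhibitors that Wnt signalling itself induces.

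The sort markers ran against the labels, so populations are named by their labels throughout. Values are log2 ratios with the Lgr5-GFP label in the numerator and CD24hi in the denominator, and a negative value means less signal in the RNA labelled Lgr5-GFP. Lgr5 itself was lower in the RNA labelled Lgr5-GFP, as given below. Cd24a, which encodes the other sort antigen, was higher there by 2.12 ± 0.30 (SD, n = 2; adjusted p = 7.46e-04, limma). Every direction below rests on the labels and dyes as deposited, and would turn if the populations had been exchanged. In RNA of sorted pools, fewer cells of a type and less RNA per cell cannot be told apart.

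Array 1B stood apart. Its median spot signal was 4377 for RNA labelled Lgr5-GFP, against 94.2 to 164 on the other arrays, and the scanner software marked 75.3% of its 43379 gene spots as outliers, which were left out. Among the member probes 13 of 18 were marked there. Of the 10 genes, Lgr4, Lrp6 and Axin2 kept a value on it, so for the other 7 genes replicate 1 rested on its first array and was not dye-balanced.

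Probes of Lgr5, Rnf43 and Fzd7 are shown by their first 30 bases of about 60, as the array annotation gives them, because probes of 1 gene did not read alike. Positions are those of build mm9 and cover the 30 bases shown. The first of each pair stood for its gene, and the second was too dim to be kept.
Lgr5, A_51_P218091, chr10:114888877-114888906, minus strand: aaacaccgcttgtatcatttgttcagctaa
Lgr5, A_52_P30169, chr10:114900716-114900745, minus strand: acctctagtgcttatatagaaacttgtgtg
Rnf43, A_51_P337101, chr11:87548944-87548973, plus strand: atgggtatttatatctgaaccagacagaaa
Rnf43, A_52_P78183, chr11:87543959-87543988, plus strand: tgttgcttctaaatctaatttgtttgcaaa
Fzd7, A_52_P552665, chr1:59543192-59543221, plus strand: aagggaaggtgaacttcaaagtgattctgg
Fzd7, A_51_P142107, chr1:59541367-59541396, plus strand: agccccgactttacagtcttcatgatcaag
The annotation ties the dim Lgr5 and Rnf43 probes to cDNA records other than the RefSeq transcripts of the bright ones. Both Fzd7 probes are tied to the same RefSeq transcript. No gene annotation of build mm9 was used, so exon or UTR positions are not stated.

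In all, 6 of the 10 genes were lower in the RNA labelled Lgr5-GFP and none was higher. These were Lgr5, Lgr4, Rnf43, Znrf3, Fzd7 and Axin2, while Fzd5, Lrp5, Lrp6 and Nkd1 did not pass the test. The test was limma on the 2 replicate ratios, with p-values adjusted over all 14786 genes tested and a threshold of 0.05. Over all those genes 47.3% were called, 25.6% lower and 21.7% higher, so a called gene was common in this comparison. That is 3205 genes higher and 3782 lower, a split that became 2221 and 5435 with median centring in place of loess and 2755 and 4247 with the authors' deposited series table. The median log2 ratio was -1.09 over the 10 genes and -0.07 over all genes tested. The calls depended on several steps. With marked spots kept, 5 of the 10 genes and 3747 genes in all were called. With probes required above background in both populations, 3 of the 7 members then tested were called. Lgr5, Fzd7 and Axin2 dropped out there. Their probes had been kept through RNA labelled CD24hi alone, the population in which they read higher. Their entry to the test was therefore not independent of that direction. A set of 74 spots with a non-uniform local background, on array 2A, was left out before the background fit, a choice made after results were seen. With them in the fit, limma called 0 genes and 0 of the 10 (5575 genes had an unadjusted p under 0.05, and the smallest adjusted p was 0.0559).

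**Figure D1:**
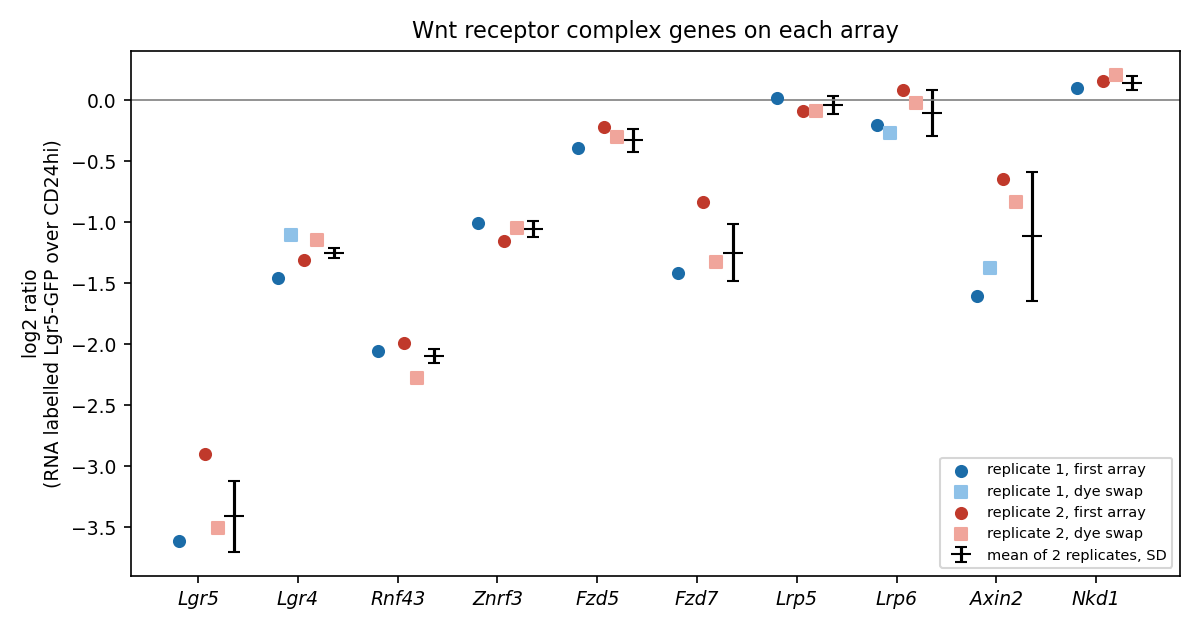
Log2 ratio, RNA labelled Lgr5-GFP over CD24hi, (vertical axis) for the 10 genes on each array (points) with the mean of the 2 replicates and its SD (black). Lgr5 lies lowest, between -3.61 and -2.90, and Lrp5, Lrp6 and Nkd1 lie around 0; points of array 1B exist for Lgr4, Lrp6 and Axin2.

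**Figure D2:**
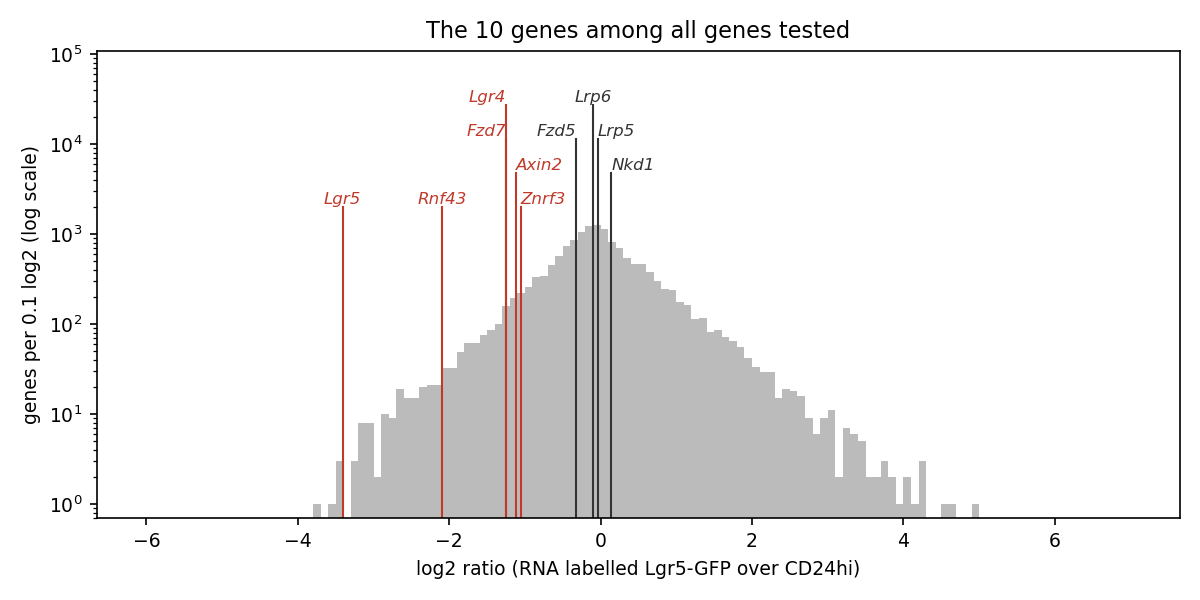
Number of genes tested per 0.1 of log2 ratio (grey, log scale) with the mean of each of the 10 genes as a vertical line, red where called lower and black where not called. Lgr5 at -3.41 lies near the low end of all genes, and the 4 genes not called lie near the centre.

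The R-spondin receptors were both lower in the RNA labelled Lgr5-GFP. Lgr5 read -3.61 on array 1A, -2.90 on 2A and -3.51 on 2B. All 3 arrays with a value were low, and none came near 0. The mean was -3.41 ± 0.29 (SD, n = 2), 10.6-fold lower (95% confidence interval of the log2 ratio -3.78 to -3.04; adjusted p = 5.92e-04, limma). Only 4 of the 14786 genes lay lower.

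The Lgr5 spots were bright in RNA labelled CD24hi and dim in RNA labelled Lgr5-GFP. After subtraction of the local background, the CD24hi signal was 2095, 755 and 1663 scanner units on arrays 1A, 2A and 2B. The Lgr5-GFP signal on the same arrays was 86.7, 45.3 and 98.0, above background on 2 of the 3. On array 1B, where it was marked, the raw order was the other way, with 5819 for RNA labelled Lgr5-GFP and 2766 for RNA labelled CD24hi. The median gene spot of that array had the same order, at 4377 and 1358 before background subtraction. The raw order there is thus not a direction relative to the array. With marked spots kept, the mean was -2.69 (adjusted p = 0.0117, limma). With the background step alone changed, the mean was -3.02 without subtraction and -4.003 with an offset of 10. It was -4.77 with signals processed by the scanner software and -4.78 in the authors' deposited series table, both of which differ from the main setting in normalization or have it unstated. It was -2.71 when non-uniform backgrounds stayed in the fit (adjusted p = 0.0614, limma).

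The second Lgr5 probe read 0.06 as a mean of the replicates, between -0.13 and 0.28 over the 4 arrays. Its signals on array 1A were 29.6 and 22.1 units, above background in neither population. It therefore gives no level for either population, and the Lgr5 result rests on 1 probe.

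Lgr4, the more widely expressed R-spondin receptor, read -1.45 on array 1A, -1.10 on 1B, -1.31 on 2A and -1.14 on 2B. The 4 arrays lay within a narrow range and all below 0. The mean was -1.25 ± 0.04 (SD, n = 2), 2.38-fold lower (adjusted p = 0.00131, limma), and -1.34 without array 1B. With marked spots kept, the gene read -0.70 and was not called (adjusted p = 0.0531, limma). The probe described here had no marked spot, and the brightest probe was picked anew in that setting. The value of -0.70 may therefore come from another Lgr4 probe.

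Lgr4 had 4 probes, and they did not give the same size. The probe nearest to the one above along the annotated transcript read -0.87 ± 0.12 (SD, n = 2; adjusted p among kept probes = 0.00355, limma). A further probe, whose annotated span of 1387 bases is longer than the probe and so crosses a splice junction, read -0.14 ± 0.24 (adjusted p = 0.456, limma). Its signals were 46.6 and 70.7 units on array 1A, close to background. The last was too dim to be kept and read -0.01. As the mean over kept probes, Lgr4 read -0.84 (adjusted p = 0.00594, limma).

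The difference between the receptors was the same way in both replicates. Lgr5 lay below Lgr4 by a log2 difference of -2.34 in replicate 1 and -1.98 in replicate 2. With 2 replicates this was not tested. Lgr6, the third receptor of the family, read -0.17 ± 0.16 and was not called (adjusted p = 0.337, limma). None of the 4 R-spondin ligand genes passed the filter on dim probes, so their levels were not compared.

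Both ubiquitin ligases were lower in the RNA labelled Lgr5-GFP. Rnf43 read -2.05 on array 1A, -1.99 on 2A and -2.28 on 2B. These 3 values lay close together. The mean was -2.09 ± 0.06 (SD, n = 2), 4.26-fold lower (adjusted p = 6.12e-04, limma). Its CD24hi signal was 8466, 2365 and 2117 units on those arrays, against 1360, 394 and 397 in RNA labelled Lgr5-GFP, so both populations were well above background. The second Rnf43 probe read -0.06 and was above background in neither population on the 3 arrays that did not stand apart.

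Znrf3, the paralog of Rnf43, read -1.01, -1.16 and -1.05 on the same arrays. The 3 values again lay within a narrow range below 0. The mean was -1.06 ± 0.07 (SD, n = 2), 2.08-fold lower (adjusted p = 0.00208, limma). It reached -1.70 with the processed signals and -1.74 in the authors' deposited series table. Rnf43 lay below Znrf3 by -1.04 in replicate 1 and -1.03 in replicate 2, a difference that was not tested. The gap depended on the processing. Rnf43 read -2.33 with the processed signals and -2.25 in the series table, so it lay closer to Znrf3 in both.

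Of the Frizzled receptors, Fzd7 was lower and Fzd5 was not called. Fzd7, a Frizzled known from intestinal stem cells, read -1.41 on array 1A, -0.84 on 2A and -1.33 on 2B. All were below 0, and array 2A was the least so. The mean was -1.25 ± 0.23 (SD, n = 2), 2.37-fold lower (adjusted p = 0.00191, limma). Its spots were dim, with 53.7, 36.4 and 38.8 units in RNA labelled Lgr5-GFP (above background on 2 of the 3) against 268, 106 and 203 in RNA labelled CD24hi. With the background step alone changed, the mean was -0.90 without subtraction and -1.89 with an offset of 10. It was -2.76 with the processed signals and -2.59 in the authors' deposited series table. The second Fzd7 probe was too dim to be kept and read -0.11.

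Fzd5, a receptor expressed through the crypt epithelium, read -0.39, -0.22 and -0.30 on the same arrays. All 3 values were slightly below 0. The mean was -0.33 ± 0.09 (SD, n = 2; adjusted p = 0.0800, limma), with a 95% confidence interval of -0.64 to -0.02. The call depended on the processing: Fzd5 passed the threshold under 6 alternatives, among them the processed signals (-0.69, adjusted p = 0.0187) and the fit of 4 arrays with the replicate block (-0.30, adjusted p = 0.0380, limma). Its second probe, also kept, read 0.12 ± 0.06 (adjusted p among kept probes = 0.457, limma), the other way. Fzd7 lay below Fzd5 by -1.02 in replicate 1 and -0.82 in replicate 2, which was not tested.

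The LRP coreceptors did not pass the test in either direction. Lrp5 read 0.02, -0.09 and -0.09 on arrays 1A, 2A and 2B. The values lay on both sides of 0. The mean was -0.04 ± 0.07 (SD, n = 2; adjusted p = 0.839, limma), with a 95% confidence interval of -0.34 to 0.27, at signals of 768 and 1138 units on array 1A.

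Lrp6 read -0.20 on array 1A, -0.27 on 1B, 0.08 on 2A and -0.02 on 2B. The replicates differed in sign. The mean was -0.10 ± 0.19 (SD, n = 2; adjusted p = 0.566, limma), with an interval of -0.44 to 0.23, and -0.09 without array 1B. Its second probe read -0.07 ± 0.05. The intervals of both coreceptors lay above the mean ratios of the 6 called genes, but cover the spread of these replicates only. The Lrp6 spots were dim in RNA labelled Lgr5-GFP, with 90.5, 54.2 and 79.8 units on arrays 1A, 2A and 2B. They were not above background on array 2A. With an offset of 10 Lrp5 read -0.02 and Lrp6 -0.12.

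**Figure D3:**
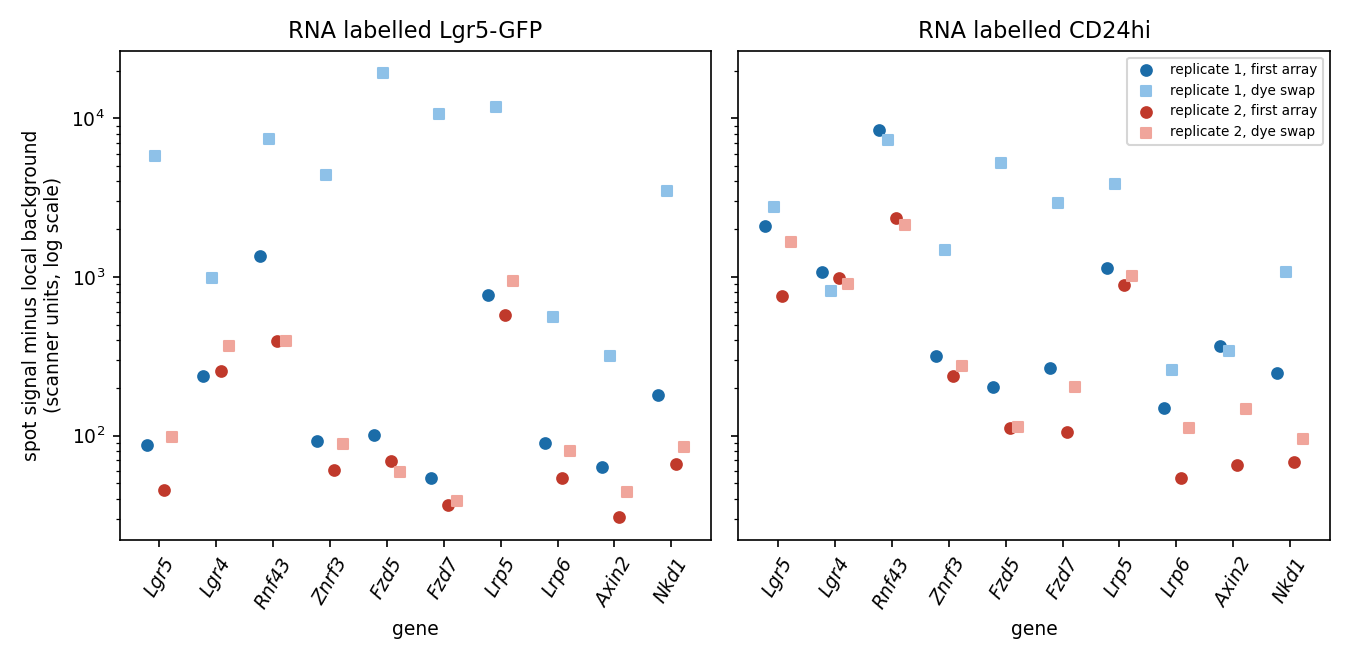
Spot signal minus local background (scanner units, log scale) of the probe that stands for each gene, in RNA labelled Lgr5-GFP (left) and RNA labelled CD24hi (right), 1 point per array, marked spots included. Lgr5 lies between 45.3 and 98.0 on the left and between 755 and 2095 on the right, apart from array 1B, whose points lie above the others for most genes.

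The feedback genes differed from each other. Axin2, a scaffold of the beta-catenin destruction complex and a widely used Wnt reporter, read -1.60 on array 1A, -1.38 on 1B, -0.64 on 2A and -0.84 on 2B. All 4 were below 0, and both arrays of replicate 1 were lower than both of replicate 2. The mean was -1.12 ± 0.53 (SD, n = 2), 2.17-fold lower (adjusted p = 0.00760, limma), and -1.17 without array 1B. Its spread was the widest of the 10 genes. It was dim in RNA labelled Lgr5-GFP, with 63.6, 30.5 and 44.3 units on arrays 1A, 2A and 2B. It was above background there on 3 of 4 arrays, among them array 1B, where nearly every spot passed that mark. It reached -2.21 with the processed signals and -2.10 in the authors' deposited series table.

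Nkd1, which binds Dishevelled, read 0.10 on array 1A, 0.15 on 2A and 0.21 on 2B. The 3 values were slightly above 0. The mean was 0.14 ± 0.06 (SD, n = 2; adjusted p = 0.385, limma), with a 95% confidence interval of -0.16 to 0.45. It turned to -0.12 when arrays were centred on their median in place of loess. Axin2 lay below Nkd1 by -1.59 in replicate 1 and -0.92 in replicate 2, a pair added after the values were seen and not tested.

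Taken probe by probe, 14 of the 18 member probes were kept, of which 7 were called lower and 0 higher, in a fit where 46.4% of 20594 kept probes were called. The probes called were the 6 that stood for the called genes and the second of Lgr4. This fit was added after the data were seen.

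**Figure D4:**
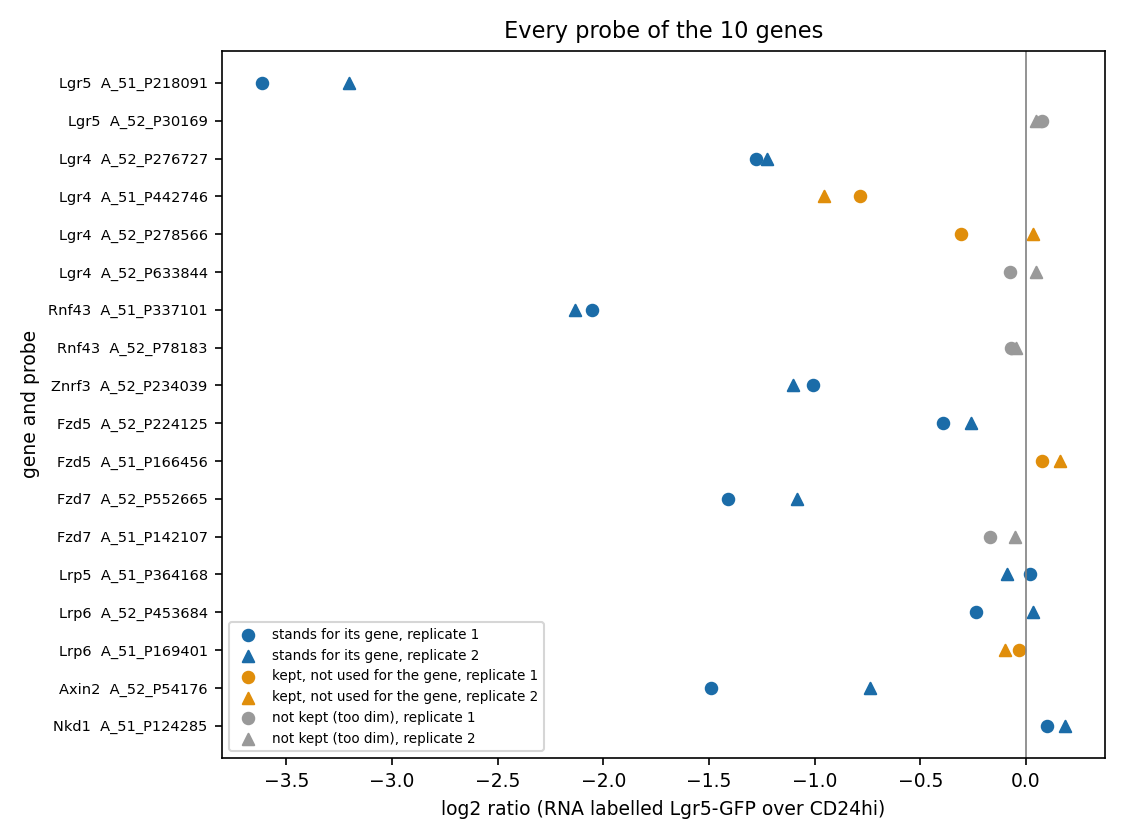
Log2 ratio, RNA labelled Lgr5-GFP over CD24hi, (horizontal axis) for all 18 probes of the 10 genes, in replicate 1 (circles) and replicate 2 (triangles). The 4 probes that were too dim to be kept (grey) lie near 0, also where the bright probe of the same gene lies at -3.41 (Lgr5) or -2.09 (Rnf43).

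Promoter windows of RefSeq (build GRCm38.p6), from 250 bases before the start to 50 after it, were found for 6 of the 10 genes, as 7 windows. They were searched on both strands for CTTTGAA or CTTTGAT and for CTTTGTA or CTTTGTT, the core letters to which TCF factors bind. A match lay in 1 of the 7 windows, that of Fzd7 at position -130 from the start, and in 16.9% of all 32851 windows of that length. The part before the start is shown for Fzd7, with the match in capitals, and for Axin2, a textbook Wnt target, which had no match in this window.
Fzd7, chr1:59481897-59482146, plus strand: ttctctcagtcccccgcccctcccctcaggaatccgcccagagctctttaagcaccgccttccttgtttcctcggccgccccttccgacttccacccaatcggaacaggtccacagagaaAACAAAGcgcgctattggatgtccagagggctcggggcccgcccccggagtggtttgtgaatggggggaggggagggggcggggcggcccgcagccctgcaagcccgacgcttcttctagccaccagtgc
Axin2, chr11:108920099-108920348, plus strand: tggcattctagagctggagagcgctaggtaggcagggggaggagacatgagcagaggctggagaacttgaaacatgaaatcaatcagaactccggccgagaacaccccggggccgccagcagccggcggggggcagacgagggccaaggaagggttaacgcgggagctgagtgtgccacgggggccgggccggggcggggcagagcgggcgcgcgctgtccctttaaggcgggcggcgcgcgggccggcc
The match is a description of letters, and its absence in the other windows says only that they are not there.

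Other genes of the pathway were called in both directions. Of 115 listed, 80 were tested, 16 being higher and 25 lower in RNA labelled Lgr5-GFP. That is 51.2% called, beside 47.3% of all genes tested, so the share called was near the background.

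Among the other Frizzleds and coreceptors, 13 of 15 were tested, 2 were higher and 4 lower, with a median of -0.07. Fzd9 was higher by 2.63 ± 0.59 (adjusted p = 9.11e-04, limma) and Fzd4, the Norrin receptor, by 0.63 ± 0.01. Lrp4, an LRP5 and LRP6 relative that can restrain Wnt signalling, was at -1.55 ± 0.14 and Fzd2 at -1.51 ± 0.35. Caprin2, which promotes LRP phosphorylation, was at -0.87 ± 0.17, and Fzd6 at -0.04 ± 0.02 was not called. The Frizzled family thus read from -1.51 to 2.63, with Fzd7 nearer its low end.

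Of the Wnt ligands and their secretion factors, 8 of 21 were tested, 1 was higher and 1 lower, with a median of -0.02. Wnt11 was higher by 0.51 ± 0.08 (adjusted p = 0.0196, limma). Wnt3 read -0.39 ± 0.10 (adjusted p = 0.0483, limma). It was above background on 0 of 3 arrays in that RNA and passed the filter through RNA labelled CD24hi alone, so its level there is not known.

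Of the extracellular and membrane inhibitors, 8 of 21 were tested, 2 were higher and 4 lower. Wif1, a secreted Wnt-binding inhibitor, was higher by 1.54 ± 0.81, above background in RNA labelled CD24hi on 1 of 3 arrays, and Kremen2, a Dickkopf receptor, by 0.89 ± 0.11. Apcdd1, which binds Wnt and LRP5, was at -1.20 ± 0.27, above background in RNA labelled Lgr5-GFP on 2 of 3 arrays. Dact2 was at -1.07 ± 0.36 and Shisa2, which retains Frizzled inside the cell, at -0.97 ± 0.21. Dkk3 and Sfrp1 did not pass the filter on dim probes.

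Of the Dishevelled and destruction complex genes, 24 of 25 were tested, 5 were higher and 7 lower, with a median of -0.16. Ctnnbip1, which blocks the binding of beta-catenin to TCF, was higher by 2.23 ± 0.17 (adjusted p = 6.12e-04, limma), Cby1, another beta-catenin antagonist, by 0.64 ± 0.24 and Frat1, a GSK3 inhibitor, by 0.62 ± 0.25. Csnk1e, a kinase of Dishevelled, was at -1.25 ± 0.49, Tnks2, which marks Axin for breakdown, at -0.73 ± 0.14 and Amer1 at -0.71 ± 0.29. Ctnnb1 at -0.24 ± 0.03 and Apc at 0.14 ± 0.10 were not called.

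Of the TCF factors and cofactors, 13 of 15 were tested, 4 were higher and 3 lower, with a median of -0.03. Tle2, a corepressor, was higher by 2.04 ± 0.51, Pygo2 by 0.96 ± 0.48 and Tle5 by 0.74 ± 0.34. Tle4 was at -0.76 ± 0.08, Tle3 at -0.46 ± 0.16, and Tcf7 at -0.79 ± 0.29. Tcf7 was above background in RNA labelled Lgr5-GFP on 2 of 3 arrays. Tcf7l2, the main TCF factor of the intestine, was at -0.17 and not called (adjusted p = 0.305, limma).

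Intestinal Wnt target genes were all tested, 13 of 13, with 2 higher and 6 lower and a median of -0.15. Cdca7 was at -2.43 ± 0.11, Myc at -2.39 ± 0.05 and Ascl2, a transcription factor of crypt base stem cells, at -1.31 ± 0.25, with adjusted p-values of 6.12e-04, 6.12e-04 and 0.00177 (limma). Mmp7 was higher by 2.46 ± 0.05, on 2 arrays, and Tnfrsf19 by 1.06 ± 0.31 on 4. Wnt targets were thus called in both directions.

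Most markers of crypt base stem cells and all those of dividing cells ran the same way as the called members. Of 13 crypt base stem cell markers tested, 8 were lower and 1 was higher in RNA labelled Lgr5-GFP (median -1.12). The 8 include the members Lgr5 and Axin2. That is 69.2% called, beside 47.3% of all genes tested (25.6% lower). Smoc2 was at -2.78 ± 0.39, and Tnfrsf19 was the 1 called higher, at 1.06 ± 0.31. Those not called were Rgmb at 0.01 ± 0.19, Msi1 at -0.002 ± 0.16, Prom1 at 0.15 ± 0.14 and Sox9 at -0.006 ± 0.07. All 12 markers of dividing cells were lower (median -2.42), with Birc5 at -3.18 ± 0.54 and Mki67 at -3.03 ± 0.62. Their summed signal ranged from 8370 to 13920 units in RNA labelled Lgr5-GFP and from 69352 to 105341 in RNA labelled CD24hi, over the 3 arrays other than array 1B.

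Most markers of secretory cells ran the other way. Of 12 goblet cell markers 9 were higher and none lower (median 2.70), with Retnlb at 4.05 ± 0.88 and Muc2 at 3.76 ± 0.58. Those not called were Tff3 at -0.95 ± 1.13, Fcgbp at 0.10 ± 0.72 and Zg16 at 0.30 ± 0.71. The summed goblet signal was 521904 to 857927 units in RNA labelled Lgr5-GFP, against 53727 to 172627. Of 8 enteroendocrine markers 5 were higher (median 2.89), with Chgb at 3.87 ± 1.02 and Chga at 3.64 ± 1.43. Neurog3 at -0.36 ± 0.47, Pyy at 0.77 ± 2.42 and Gcg at 0.16 ± 2.61 were not called. All 6 tuft cell markers were higher (median 1.92), with Dclk1 at 2.28 ± 0.37. Apart from secretory cells, 5 of 8 absorptive colonocyte markers were higher (median 0.63), with Guca2a the highest at 3.05 ± 0.33. Slc26a3 at -0.49 ± 0.55, Car4 at -0.13 ± 0.10 and Aqp8 at 0.34 ± 0.19 were not called. Of the 7 markers of epithelium at large, 2 were lower, Cdx2 at -0.63 ± 0.39 and Krt8 at -0.61 ± 0.26. Of 8 immune markers 3 were tested and none called, and of 8 stromal and endothelial markers 1, Col1a2, at 0.44 ± 0.16. The part of these cell types in the values of the 10 genes was not tested.

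The genes whose pattern lay nearest to that of Lgr5 were Acot1, Rgcc, Nlrp6, Kcnq1 and Cttnbp2, by Euclidean distance of log2 ratios over the 3 arrays with an Lgr5 value among 14758 genes. Acot1, an acyl-CoA thioesterase, lay at a distance of 0.0701, with -3.67, -2.93 and -3.48 on arrays 1A, 2A and 2B. The others lay at 0.439, 0.495, 0.549 and 0.644. All 3 arrays compare the same pair of populations.

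**Figure D5:**
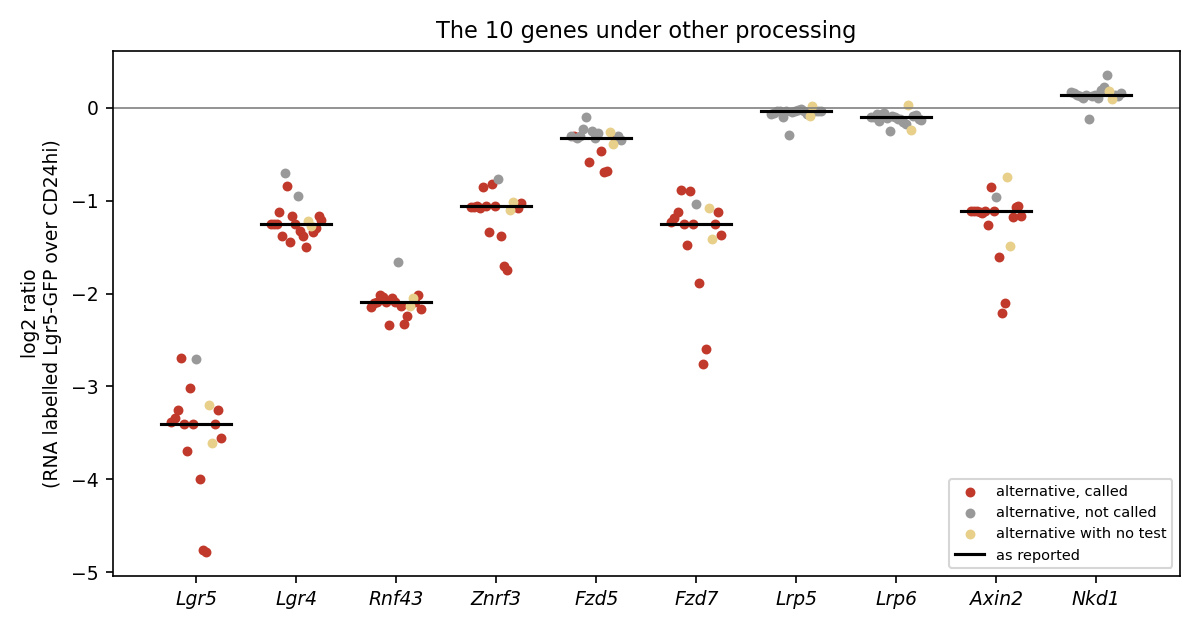
Log2 ratio of each of the 10 genes as reported (black line) and under each processing alternative (points, red where called, grey where not called, yellow where no test was possible). The 6 called genes lay below 0 in every alternative plotted; their grey points include the fit with non-uniform backgrounds kept, in which none was called.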

How the data were processed

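Per the labels' protocols, a linear amplification kit was used on 300 ng of total RNA. Per the file headers, arrays were read with Agilent Feature Extraction 10.5.1.1. For each spot the deposited intensity values hold the mean brightness and the local background in both colours, and the deposited intensity values called processed were background-subtracted and dye-normalized by that software. The deposited log10 ratio was red over green. The authors' deposited series table holds log2 values, red over green, as a comparison with each array's own log10 ratio showed (r 0.923 to 0.986, slopes 2.91 to 3.30); its column medians were -0.01, 0.03, -0.01 and -0.01, and the sources used here do not give its normalization. Flags of the scanner software, deposited as 0 or 1, marked outlier spots, non-uniform backgrounds and spots above background.

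Background was corrected with normexp (offset 50) in limma 3.58.1 (R 4.3.3), then global loess was run, in which control spots had weight 0. Marked spots (100, 32648, 173 and 163 of 43379 on arrays 1A, 1B, 2A and 2B) were left out, as were 74 spots with a non-uniform background, before the background fit. Both removals follow an earlier analysis of these files, which adopted the second after the fit with those spots called no gene. A probe was kept where 1 population or both were well above background on each of the 4 arrays, and the brightest kept probe stood for a gene. On array 1B nearly every spot passed that mark, so the filter rested on the other 3 arrays. Symbols of 3541 gene probes were updated through RefSeq names. An array and its dye swap were averaged to 1 ratio, and lmFit and eBayes tested the 2 replicate ratios against 0, 2-sided, with Benjamini-Hochberg adjustment over all genes.

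With 1 residual degree of freedom a gene, the test leans on the spread shared across genes (4.53 prior degrees of freedom). On simulated data this quantity was poorly estimated, and in several draws the share of false calls exceeded the 0.05 threshold, so adjusted p-values are approximate. The members, gene lists and alternatives were chosen with earlier results of these data known. Genes named were the 10 members with all probes, the 5 nearest to Lgr5, and Cd24a. From each pathway list came the 3 largest called ratios per direction, with Lgr6, Tcf7l2, Ctnnb1, Apc, Dkk3, Sfrp1 and Fzd6. Each marker list gave up to 2 called genes. The crypt base, goblet, enteroendocrine and absorptive markers that were not called were named as well, with the crypt base marker called higher. The number of arrays limits precision.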

Additional observations from a re-analysis of the deposited data

How the results depend on the processing

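The directions of the 6 called genes held in all alternatives in which they had a value. In all 18 alternatives gave a test, but not for each gene. Lgr4 was tested in 18, Axin2 in 17, Rnf43 and Znrf3 in 16, and Lgr5 and Fzd7 in 15. With dye swaps only, and without array 1A, Lgr5, Rnf43, Znrf3 and Fzd7 had no value. With non-uniform backgrounds kept in the fit, 0 genes were called, 0 higher and 0 lower, and 0 members, with Lgr5 at -2.71. With marked spots kept, 3747 genes were called (1444 higher, 2303 lower). With dye swaps only, 937 were (479 higher, 458 lower) among 5646 tested, and 2 members of the 3 tested. Without array 1A, 944 were (480 higher, 464 lower) among 5648, and 2 members of 3. These last 2 settings tested fewer genes because most spots of array 1B were marked. With probes required above background in both populations, 3 of 7 members tested were called (Lgr5, Fzd7 and Axin2 were not tested). The cause of the other changes was not tested. The second Lgr5 probe read 0.0615, the second Fzd5 probe 0.12, and Nkd1 read -0.12 with median centring. Median centring shifted the median of all genes to -0.25, and 2221 genes were called higher and 5435 lower; with the series table it was -0.18, with 2755 and 4247. With the 4 arrays entered with the replicate block, 8213 genes and 7 members were called (consensus correlation -0.04), Fzd5 being added, and no other member changed its call. Without array 1B, 8545 genes were called (3984 higher, 4561 lower) and 7 members. Leaving out a replicate gave 1 ratio and so no test: Lgr5 read -3.61 to -3.20. Fzd7, Axin2, Lgr5 and Lrp6, each by the probe that stood for the gene, were not above background on 1 array each in RNA labelled Lgr5-GFP. Lrp6 was still tested with both populations required, through its second probe (-0.07).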
